A study of Homo sapiens with 6 samples.

Results

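A set of H3K4me2 regions was present in vehicle-treated LNCaP cells, was still present 4 h after the LSD1 inhibitor GSK2879552 was added, and was no longer called at 24 h. Peak records of the 3 deposited lists (vehicle, GSK 4 h and GSK 24 h) on chromosomes 1 to 22 were pooled, and records overlapping by at least 1 bp were merged into 147111 union regions. The late-lost regions were chosen by list presence alone: each held a vehicle record and a GSK 4 h record and no GSK 24 h record. There were 4330 of them, 2.94% of all union regions, and 4171 held exactly 1 record from each of both lists.

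LNCaP is an androgen-responsive prostate cancer cell line. The cells were kept for 3 days in medium with 5% charcoal-stripped serum, which is low in steroids, before treatment, and chromatin was immunoprecipitated with a Millipore antibody against H3K4me2. The control samples are labelled as vehicle without GSK. The labels of both GSK groups name the androgen DHT together with GSK2879552, for 4 h or 24 h, whereas the treatment protocol names GSK2879552 alone, so an effect of DHT and an effect of the inhibitor cannot be told apart. Each group had 2 replicates, but each deposited list was made from both replicates together. Every value below is therefore 1 value per group, the spread between replicates is unknown, and groups could not be tested against each other. Intervals are 95% Wilson intervals and cover counting error only.

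H3K4me2, histone H3 dimethylated on lysine 4, is found at enhancers and around the promoters of genes that are active or poised. LSD1, the product of KDM1A, removes methyl groups from mono- and dimethylated lysine 4 of histone H3, usually within CoREST or NuRD corepressor complexes, and in prostate cancer cells it also works with the androgen receptor as a coactivator. GSK2879552 inactivates the catalytic centre of LSD1, so H3K4me2 is a direct substrate mark of the inhibited enzyme.

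The lists held 97240 vehicle, 124364 GSK 4 h and 123292 GSK 24 h records on these chromosomes, with a recovered depth of 9.43, 10.1 and 8.98 tags per kb. The 24 h library was thus the shallowest, at 0.952 of the vehicle depth. The lowest -log10 q-values were 1.32, 1.34 and 1.34, just past a q-value of 0.05 in each list. Signal is given below as summit height, which is the number of fragments covering a record's summit (the pileup, recovered from the deposited fold and p-value) expressed as a multiple of that list's own genome-wide background. On the genome-wide background, the lowest GSK 24 h record had a pileup of 7 and a height of 3.56. Heights were not normalised between lists in any other way.

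Of the 75127 regions with a vehicle and a GSK 4 h record, 5.76% (5.599 to 5.93) had no GSK 24 h record and are the regions described here. The mirror class, with a vehicle and a GSK 24 h record and no GSK 4 h record, held 5635 of 76432 regions, 7.37%. The order of both classes turned when weak records were removed from each list, with 4633 late-lost and 4509 mirror regions from a -log10 q-value of 5 and 3629 and 2782 from 10. Such a cut also removes weak GSK 24 h records, so regions that have one can enter the late-lost class. Of the 4330 late-lost regions, 751 had a vehicle -log10 q-value of at least 10, so most of the 3629 were not among them. Vehicle regions already without a GSK 4 h record were much more often without one at 24 h, at 58.8% of 13686 regions. The union also held 70797 regions present in all 3 lists. As these classes are defined by the same lists, the shares describe them and were not tested.

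Most late-lost regions were low in both lists in which they were called. Their median vehicle height was 7.20, from a pileup of 15 fragments, against 13.0 for regions in all 3 lists. At 4 h their median height was 8.50, from 16 fragments. Their deposited fold enrichment over the local background had a median of 4.22 in vehicle and 4.16 at 4 h, which placed the median region at percentile 31.4 of all vehicle records and 31.7 of all GSK 4 h records. The -log10 q-value had a median of 5.29 (interquartile range 3.90 to 7.82) in vehicle and 5.87 (4.25 to 8.33) at 4 h. The regions were also short, with a median merged length of 442 bp against 890 bp for regions in all 3 lists. The vehicle and 4 h summits lay a median of 82 bp apart in the late-lost regions and 95 bp in regions present in all 3 lists. Overlap of both records was part of the rule and the regions were short, so a small distance was largely set in advance.

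The vehicle values had a long upper tail. The 95th percentile of the vehicle -log10 q-value was 45.0 and the highest value was 201. At 4 h the same regions reached 13.96 at the 95th percentile and 40.9 at most. The mirror class had the same median vehicle -log10 q-value, 5.29, but a 95th percentile of 10.6 and a highest value of 60.5. The late-lost set was thus made of many weak regions and a smaller number of regions that were strong in vehicle, nearly all of them lower at 4 h. From here on, a region with a vehicle -log10 q-value of at least 20 is called strong, a threshold chosen after the values were seen.

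The share of regions lost at 24 h was highest for low regions, but did not go to 0 for high ones. Below a vehicle height of 6, 18.2% (17.3 to 19.2) of vehicle and GSK 4 h regions had no GSK 24 h record. The share was 4.57% at heights of 8 to 12 and 2.49% at heights of 16 to 24. It then stayed near that level, at 2.38% for heights of 32 to 48, 3.19% (2.49 to 4.09) for 48 to 64 and 2.28% for 64 to 96. At heights of 128 or more it was 1.23% (0.869 to 1.74), 31 of 2516 regions. Among these 31 are all 14 regions of an evenly spaced run on chromosome 1 and a group of chromosome 5 regions with vehicle heights of 130 to 147. Both groups are described below, and neither can be taken as separate losses. The interval counts them as separate regions. The mirror class started higher, at 24.1% below a height of 6, and was at 0.296% (0.176 to 0.496) for heights of 32 to 48. No mirror region was found at heights of 128 or more, which with 0 of 2485 regions allows a share of up to 0.154%. High vehicle regions were therefore lost at 24 h after being kept at 4 h more often than they were lost at 4 h and back at 24 h, by more than counting error. This also held at heights of 32 to 128, where neither of these groups has a region.

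**Figure D1:**
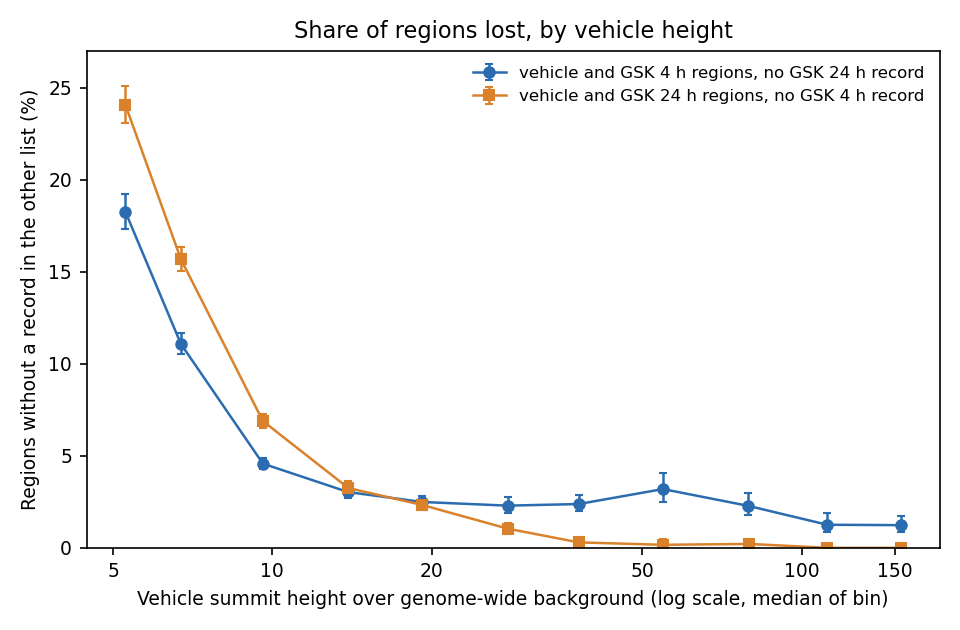
Share of regions without a record in the other GSK list (y axis, percent) against vehicle summit height over the genome-wide background (x axis, log scale, median of each bin), with 95% Wilson intervals. Blue circles are vehicle and GSK 4 h regions without a GSK 24 h record and orange squares are vehicle and GSK 24 h regions without a GSK 4 h record. The orange line lies above the blue one in the lowest bin (24.1% against 18.2%) and below it from a height of 16 upwards, reaching 0 in both highest bins.

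The same was seen when regions were split by the vehicle q-value. Of 21658 strong vehicle and GSK 4 h regions, 473 had no GSK 24 h record, 2.18% (1.998 to 2.39). The number was 1015 (4.90%) when only records with a -log10 q-value of at least 10 were kept in each list, and 281 (1.39%) when records within 1 kb were merged. The count of 1015 includes regions whose weaker GSK 24 h record was removed by the cut. Of 21203 strong vehicle and GSK 24 h regions, 18 had no GSK 4 h record, 0.0849% (0.0537 to 0.134). With a threshold of 40 the counts were 249 of 10768 and 2 of 10521. With a threshold of 100 they were 32 of 5430 and 0 of 5398. With a threshold of 10 they were 751 of 41206 and 382 of 40837, so the gap between both directions was narrower once weaker regions were let in.

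The 473 strong late-lost regions already had a lower signal at 4 h. Their median height was 36.0 in vehicle and 11.7 at 4 h. The ratio of the 4 h to the vehicle height had a median of 0.351 (interquartile range 0.272 to 0.440), and 472 of the 473 were lower at 4 h. In 96 of them the log2 ratio was -2 or below. As these regions were picked for a high vehicle value, they were set beside the 21185 strong regions present in all 3 lists, picked at the same vehicle threshold. There the median ratio was 0.876, and 60.5% were lower at 4 h. Their median vehicle height, 37.4, was close to that of the strong late-lost regions, whereas their median 4 h height was 36.7. The upper part of their heights was also lower at 4 h. The 75th percentile was 81.6 in vehicle and 49.9 at 4 h, and the 95th percentile was 158 and 69.1. The lower quartile of their ratio was 0.515, so a lower 4 h signal was not particular to the late-lost regions.

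The 3857 weaker late-lost regions did not have this pattern. Their median height was 6.72 in vehicle and 7.97 at 4 h, a median ratio of 1.19 (interquartile range 0.949 to 1.45), and 28.3% of them were lower at 4 h. None had a log2 ratio of -2 or below. A GSK 4 h record was part of the rule, however, and the lowest 4 h height of these regions was 4.25. With a 95th percentile of vehicle height of 16.8, nearly all of them could not reach such a ratio. The absence of steep falls, and part of the contrast with the strong regions, was therefore set by the rule. On the log2 scale the median ratio of 4 h to vehicle height was 0.25 for the weaker regions and -1.51 for the strong ones, beside 0.24 for all regions present in all 3 lists.

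**Figure D2:**
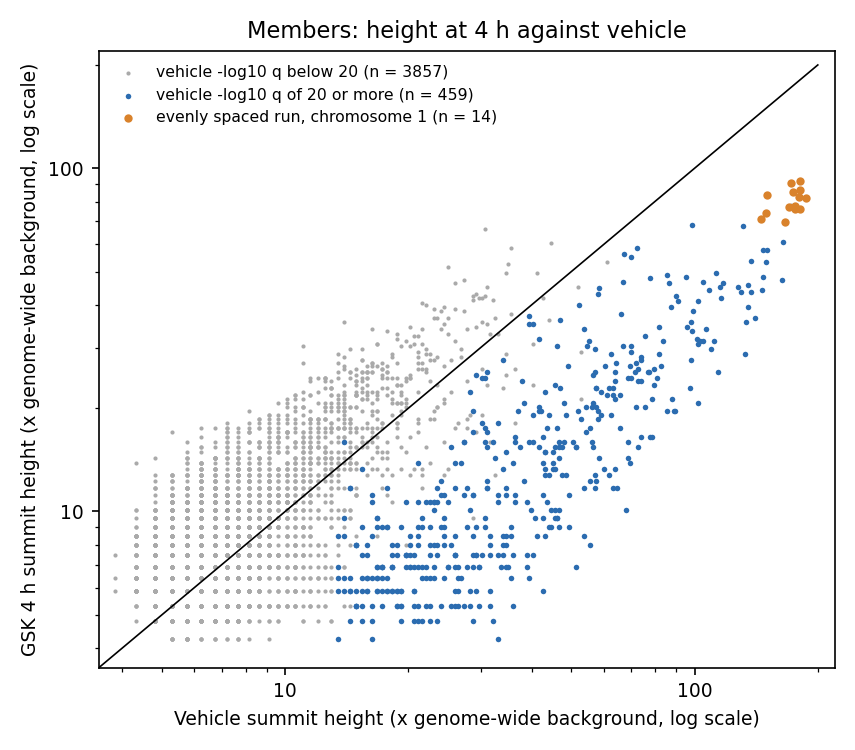
GSK 4 h summit height (y axis) against vehicle summit height (x axis) of the 4330 regions kept at 4 h and lost at 24 h, both over the genome-wide background and on log scales, with the line of equal height. Grey points are the 3857 regions with a vehicle -log10 q-value below 20, blue points 459 stronger regions and orange points the 14 regions of an evenly spaced run on chromosome 1. All but 1 of the blue and orange points lie below the line.

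Among strong regions, loss of the record at 24 h was graded by the signal at 4 h. At a log2 ratio of 4 h to vehicle height of -2 or below, 96 of 340 regions had no GSK 24 h record, 28.2% (23.7 to 33.2). For log2 ratios from -2 to -1.5 the share was 8.77%, from -1.5 to -1 it was 4.48%, and from -1 to -0.5 it was 1.91%. From -0.5 to 0 it was 0.411%. Of the 8362 strong regions that were higher at 4 h than in vehicle, 1 had no GSK 24 h record, 0.0120%. The vehicle height stands in both the choice of strong regions and this ratio, so the gradient is a description of these lists.

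To set the missing records beside counting error, each pileup was scaled to the genome-wide background of the 24 h list and compared with the pileup needed there for a record, given the lowest p-value of that list and the higher local background of the region in both other lists. A record in both lists was itself the rule, so the scaled pileup nearly had to pass in both, as it did for 95.8% of late-lost regions, 96.3% of the mirror class and 99.4% of regions in all 3 lists. The lower 95% Poisson limit of the pileup was past it in both lists for 683 (15.8%) only, against 69.0% of regions present in all 3 lists. In the mirror class, judged for the 4 h library, this share was 12.9%. By the vehicle pileup alone, the lower limit was past the needed level for 1485 (34.3%) of late-lost regions and 74.6% of regions in all 3 lists. The 24 h pileup and local background of the late-lost regions are not in the lists, so whether counting error left out their records was not tested. For the strong regions, which were picked for a high vehicle value and so had to pass in that list, the lower limit was past the needed level in both lists for 174 of 473 (36.8%).

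The 10 regions with the highest fold rank in both lists at once (ranked by the lower of the vehicle and GSK 4 h fold percentiles) spread over 8 chromosomes. The first, chr2:162197351-162197978 (628 bp, hg19), had a vehicle pileup of 154 fragments, a fold of 20.8 and a -log10 q-value of 147. At 4 h it had 31 fragments, a fold of 11.1 and a -log10 q-value of 24.7. Its height was 73.9 in vehicle and 16.5 at 4 h, and the nearest GSK 24 h record lay 29429 bp away. The vehicle height was 20.8 times the lowest height called at 24 h.

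Most of the other top-ranked regions had the same order of values. The second, chr12:90313250-90313900, had a height of 44.1 in vehicle and 19.1 at 4 h, with a GSK 24 h record 702 bp away, the nearest for any of the 10. The third, chr4:57458633-57459193, had 42.7 and 13.8. The fourth, chr7:63088083-63088612, had 45.1 and 13.3 and lay 65517 bp from the nearest GSK 24 h record, the farthest of the 10.

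The steepest differences in the top 10 were on chromosome 9. At chr9:132382293-132382979 the pileup was 162 in vehicle and 31 at 4 h, and the ratio of heights was 0.212. At chr9:214578-215438 the pileups were 125 and 25, and the ratio was 0.221. The region chr1:33351834-33352531 had 107 and 29 fragments, a ratio of heights of 0.300.

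The remaining 3 top-ranked regions were kept at 4 h with a smaller difference. At chr7:88858071-88858694 the height was 15.4 in vehicle and 13.3 at 4 h, from 32 and 25 fragments. At chr6:4428064-4428432 it was 17.8 and 11.7. The region chr5:71146610-71147021 was the only 1 of the strong late-lost regions with a higher value at 4 h, 15.9 against 13.9 in vehicle, from 30 and 29 fragments. Its nearest GSK 24 h record lay 3350 bp away.

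**Figure D3:**
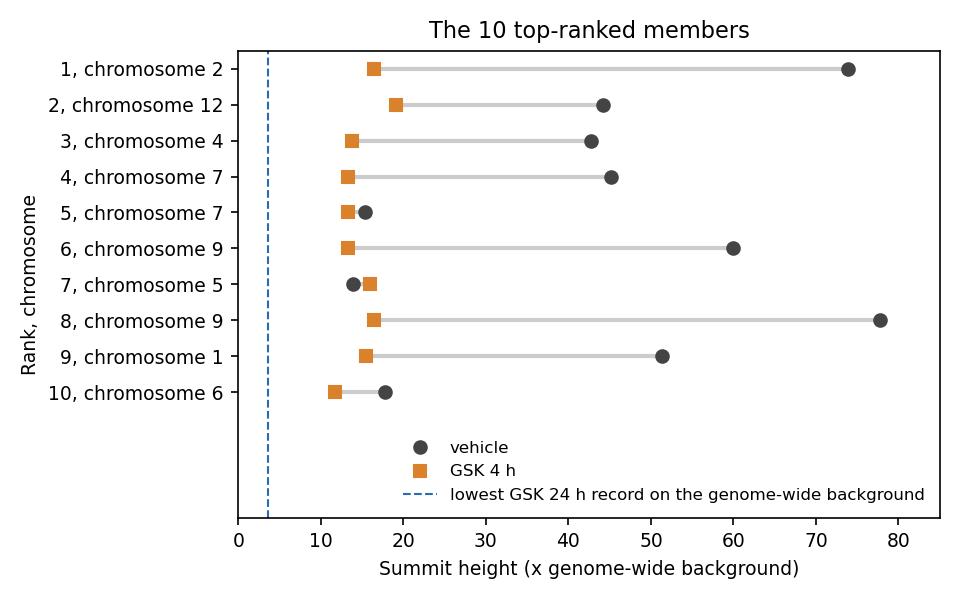
Vehicle (dark circles) and GSK 4 h (orange squares) summit heights over the genome-wide background (x axis) of the 10 late-lost regions with the highest fold rank in both lists (y axis, by rank and chromosome). The dashed line is the lowest GSK 24 h record on the genome-wide background, at 3.56. The 4 h heights lie between 11.7 and 19.1 and the vehicle heights between 13.9 and 77.7.

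Ranking by the vehicle q-value, done after the values were seen, brought up another set of regions. The highest was chr21:44847221-44847911, with a -log10 q-value of 201 in vehicle and 31.7 at 4 h and heights of 163 and 47.3. It lay 517 bp from a GSK 24 h record of height 26.5. Of the 7 highest, 5 lay on chromosome 5 between 69006248 and 70586276. These 5 had vehicle heights of 130 to 147 and 4 h heights of 39.3 to 57.9. Their vehicle local backgrounds were also alike, at 13.9 to 15.0 times the genome-wide level. Whether the 5 are copies of a repeated sequence was not determined, so they cannot be taken as 5 separate losses. All 5 had a GSK 24 h record within 52 to 191 bp of an edge, with heights of 26.5 to 36.6. The lost call at these places was thus next to a lower 24 h summit, not in an empty stretch.

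A few regions went the other way between vehicle and 4 h. The second highest 4 h -log10 q-value of all late-lost regions, 38.3, belonged to chr17:71308313-71308862, which had a pileup of 64 in vehicle and 125 at 4 h, a ratio of heights of 2.16. The third, 34.9, belonged to chr17:79869512-79869881, with 57 and 89 fragments and a ratio of heights of 1.73. Both were below a vehicle -log10 q-value of 20, on local backgrounds of 11.8 and 9.46 times the genome-wide level in that list. The highest 4 h value, 40.9, was that of chr5:70585449-70586276, which is among the chromosome 5 regions above. It was the only late-lost region with a 4 h -log10 q-value of at least 40, and 40 regions reached 20.

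The longest late-lost region, chr16:33777272-33778976, spanned 1705 bp and was weak, with heights of 9.596 in vehicle and 6.91 at 4 h. The second, chr19:30016893-30018460 (1568 bp), had 46.1 and 17.5 and lay 435 bp from a GSK 24 h record. The third, on chromosome 8 (1496 bp), had 115 and 45.2 and lay 314 bp from a GSK 24 h record of height 34.1. The 2 longest strong regions were therefore both within 1 kb of remaining 24 h signal.

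Distance to the nearest GSK 24 h record varied widely. Its median over the 4330 regions was 3399.5 bp (interquartile range 431 to 10754). It was 7355 bp for the late-lost regions found when only records with a -log10 q-value of at least 5 were kept in each list. From 10 it was 10960 bp, and 20.8% of the regions found there lay within 1 kb of a GSK 24 h record. Of the 4330 regions, 637 (14.7%) lay within 200 bp of a GSK 24 h record and 1460 (33.7%, 32.3 to 35.1) within 1 kb, and 73.5% had one within 10 kb. For the mirror class, measured to GSK 4 h records, 36.8% lay within 1 kb, and for vehicle regions in neither GSK list 29.8% lay within 1 kb of a GSK 24 h record. Where a GSK 24 h record was within 1 kb, it belonged to a region present in all 3 lists in 886 of 1460 cases (60.7%), to a region seen at 24 h only in 279, to a region seen in both GSK lists only in 223 and to the mirror class in 72.

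Strong late-lost regions lay nearer to 24 h records than the weaker ones. The median distance was 1930 bp for the strong regions and 3568 bp for the weaker ones, and 42.3% (37.9 to 46.8) against 32.7% (31.2 to 34.2) lay within 1 kb. GSK 24 h records on both sides within 2 kb were found for 122 of the 473 strong regions, 25.8% (22.1 to 29.9). The share was 5.08% (4.43 to 5.82) for the weaker ones. It was 3.92% for the mirror class, measured to GSK 4 h records, and 5.15% for vehicle regions in neither GSK list. Those classes were mostly weak, with median vehicle heights of 6.72 and 7.20 against 36.0 for the strong regions. No class of like strength was compared. In the 122 flanked strong regions the gap between the flanking records had a median of 1595 bp. The higher flank had a median height of 32.6 at 24 h, and the late-lost region between them a median vehicle height of 57.8. Strong regions also had longer merged lengths (median 654 bp against 424 bp) and higher surroundings, with a median local background of 3.36 against 1.07 times the genome-wide level in vehicle. The part of the higher surroundings in the missing 24 h records was not tested.

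**Figure D4:**
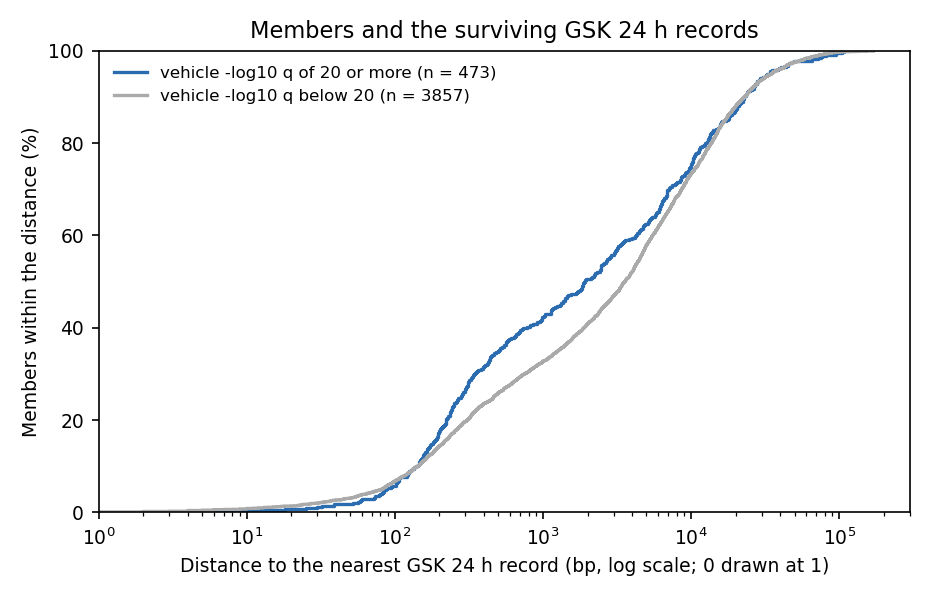
Cumulative share of late-lost regions (y axis, percent) within a given distance of the nearest GSK 24 h record (x axis, bp, log scale). The blue line is the 473 regions with a vehicle -log10 q-value of at least 20 and the grey line the 3857 others. At 1 kb the blue line is at 42.3% and the grey line at 32.7%, and at 10 kb both are near 75%.

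At the edge of the rule, presence was decided by a few bases. The 3 nearest late-lost regions, chr12:63144642-63144934, chr4:95400490-95400787 and chr2:134256757-134257177, abutted a GSK 24 h record at a distance of 0 bp without overlap. All 3 were weak, with vehicle heights of 6.24, 8.16 and 5.76. In all, 34 late-lost regions lay within 10 bp of a GSK 24 h record. Just outside the rule, 12 regions present in all 3 lists shared at most 10 bp with their GSK 24 h record. The first of these, chr12:130882456-130883242, shared 1 bp and had heights of 6.24 in vehicle, 17.0 at 4 h and 6.10 at 24 h.

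The most isolated late-lost regions had pileups like those of the set as a whole or below. The farthest from any GSK 24 h record were chr4:116267560-116267780 and chr4:116270877-116271190, at 172823 and 169413 bp. Their pileups were 11 and 14 fragments in vehicle and the same, 11 and 14, at 4 h. The next, chr7:63000016-63000424, lay 153705 bp away and had 15 and 12 fragments. The median pileup of all late-lost regions was 15 in vehicle and 16 at 4 h, and the lowest pileup on the genome-wide background was 8 in vehicle and 7 at 4 h.

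Regions in all 3 lists beside the late-lost ones were set against all regions of that class. Such a neighbour was found within 10 kb of 2560 late-lost regions, 2479 different neighbours in all. Their log2 ratio of GSK 24 h to vehicle height had a median of 0.20 (interquartile range -0.09 to 0.50), beside 0.15 over all 70797 regions in all 3 lists. With the deposited fold in place of the height, the median was 0.040, beside -0.016. For the 294 neighbours of strong late-lost regions the median was -0.0089 (-0.82 to 0.30), and 51.0% were lower at 24 h, beside 38.1% over all regions in all 3 lists. The deposited fold gave the other direction, with a median of 0.14 and 38.1% lower. These neighbours had a median vehicle height of 27.8, against 13.0 for all regions in all 3 lists and 37.4 for the strong ones, of which 68.5% were lower at 24 h with a median of -0.28. The neighbours share libraries and surroundings with the late-lost regions and were not used to choose them.

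The late-lost regions were spread over all 22 chromosomes. The share of vehicle and GSK 4 h regions lost at 24 h ran from 4.69% (3.99 to 5.50) on chromosome 19 to 6.74% (5.28 to 8.56) on chromosome 21, and chromosome 1 held the most, 433 regions of which 52 were strong. Neighbouring late-lost regions on a chromosome were a median of 342278 bp apart, and 160 gaps (3.71%) were under 10 kb. Of 2728 windows of 1 Mb with a vehicle and GSK 4 h region, 1933 held a late-lost region, with a median of 2, and 146 held 5 or more.

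In 3 windows there were 10 or more. The window from 228 to 229 Mb of chromosome 1 held 16, of which 14 were strong, 23.9% of its 67 vehicle and GSK 4 h regions. The window from 33 to 34 Mb of chromosome 16 held 10 of 60 (16.7%), 5 of them strong, and includes the longest late-lost region. The window from 140 to 141 Mb of chromosome 5 held 10 of 91 (10.99%), of which 2 were strong.

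The 14 strong regions of the chromosome 1 window formed an evenly spaced run from 228748270 to 228777864 (hg19), a span of 29.595 kb. Their vehicle summits followed each other at 2168 to 2316 bp, with a median of 2238 bp. Vehicle heights were 145 to 187 (median 175), including the highest of all late-lost regions, and 4 h heights were 69.6 to 91.9 (median 79.7). Each of the 14 was lower at 4 h, with ratios of 0.419 to 0.555. Of the strong regions in all 3 lists, 60.5% were lower at 4 h, and the lower quartile of their ratio was 0.515. Regions of like vehicle height were not compared. As parts of 1 run, the 14 cannot be taken as separate observations. Beside them, the 95th percentile of height of strong regions in all 3 lists was 158 in vehicle and 69.1 at 4 h. Fold values were low all the same, at 2.16 to 2.86 in vehicle and 1.73 to 2.26 at 4 h, since the local background was 63.1 to 68.5 times the genome-wide level in vehicle and 39.1 to 41.9 times in the 4 h list.

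Between these 14 regions the 24 h list was not empty. The span held 10 regions seen at 24 h only and no region present in all 3 lists. The 10 had heights of 48.8 to 68.7 and -log10 q-values of 3.58 to 13.5, below the 4 h heights of all 14. The nearest GSK 24 h record was 74 to 2478 bp from each late-lost region (median 217 bp). The 24 h summits of the span thus stood between successive vehicle summits and between successive 4 h summits, at lower height. The span ends at the outermost late-lost regions, but similar summits went on past both ends. Vehicle summits at -2.25, 31.3 and 33.5 kb from the first summit of the run had heights of 178, 170 and 177. The 4 h summits near them had heights of 77.0, 74.9 and 83.4. None of these places was a late-lost region, so the run is only part of this series of summits. RefSeq (GRCh38.p14) lists 17 RNA5S genes, which encode the 5S RNA of the ribosome, on chromosome 1 at spacings of 2215 to 2242 bp (median 2241). Positions of that build were not carried over to hg19, so whether the 14 regions lie over these genes was not determined. In repeated sequence a read can be placed on several copies alike, and how such reads were handled is not given in the sources used here.

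**Figure D5:**
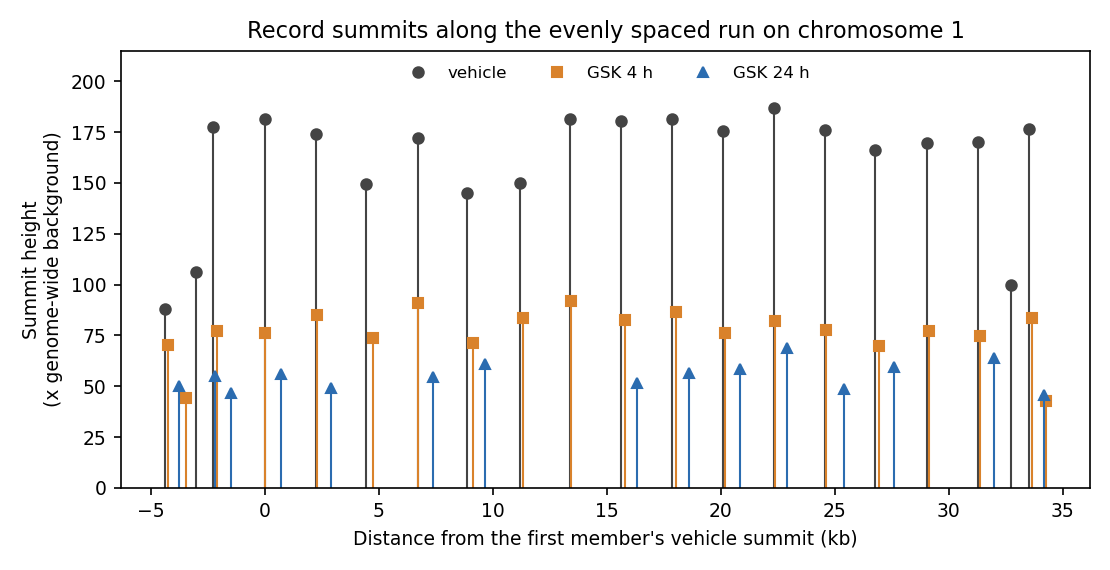
Summit heights over the genome-wide background (y axis) of all vehicle (dark circles), GSK 4 h (orange squares) and GSK 24 h (blue triangles) records along the evenly spaced run on chromosome 1, by distance from the vehicle summit of its first region (x axis, kb). Vehicle summits of the 14 regions stand at 145 to 187 and 4 h summits beside them at 69.6 to 91.9, while the 24 h summits between them stand at 48.8 to 68.7.

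Without the 14 regions of the run, 459 strong late-lost regions remained, 2.12% (1.94 to 2.32) of strong vehicle and GSK 4 h regions, and their median ratio of 4 h to vehicle height was 0.346. The high chromosome 5 regions were still counted among the 459. If a GSK 24 h record within 1 kb was also taken as presence, 2870 late-lost regions remained, of which 273 were strong, so 200 of the 473 strong regions had 24 h signal called close by. Both alternatives were chosen after seeing the data.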

How the data were processed

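H3K4me2 ChIP-seq libraries of LNCaP cells (vehicle, GSK 4 h, GSK 24 h, 2 replicates each) were analysed from the 3 peak lists deposited by the authors, 1 per group from both replicates. The submitters' processing notes name BWA 0.7.2-r351, SAMtools 0.1.18, MACS2 2.0.10.20131216 and hg19 (GRCh37). Peak-calling settings are not given in the sources used here. The authors deposited for each record a position and summit offset, a display score, a fold (ratio over local background), and -log10 p-values and q-values, none normalised between lists.

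Pileup k and background b were recovered with Python 3.11.15 and scipy 1.17.1 so that the fold equals (k + 1)/(b + 1) and p is the Poisson chance of exceeding k. A whole k was found within 0.001 for all but 2 records, both in the vehicle list. The steps were tested on simulated data. Regions named in the text were the 10 highest by the lower of both fold percentiles, the 3 longest, the 3 farthest from and nearest to a GSK 24 h record, the 3 regions just outside the rule, and the 3 windows of 1 Mb with most members. Others were chosen after their values were seen. The members, thresholds and lists were chosen with earlier results of these data known. Gene starts, CpG content, gene lists and sequences of hg19 were not analysed here. X, Y and other sequences were left out of the count. Alternatives covered the q-value threshold, list size, merging distance, overlap and distance measure.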

Additional observations from a re-analysis of the deposited data

Results flagged for a closer look

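Regions with the same list presence were also found on sequences outside the count. On X and Y there were 187 such regions of 2134 with a vehicle and a GSK 4 h record, 8.76% (7.64 to 10.0), and on other sequences (haplotype, unplaced and mitochondrial names included) there were 117 of 848, 13.8% (11.6 to 16.3). They were singled out because they lie in data that the comparisons above do not use. Both shares were above the 5.76% of chromosomes 1 to 22 by more than counting error. On those chromosomes the share depended on vehicle height, from 18.2% below 6 to 2.49% at 16 to 24. Heights on X, Y and the other sequences were not compared, so the cause of the higher shares was not tested.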

How the results depend on the processing

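No paired analysis was possible because each group has 1 list made from both replicates, and for the same reason no replicate could be left out. The number of late-lost regions stayed within 1.5 times of 4330 (3132 to 6150) under all settings but the 1 kb rule of the next paragraph. A like number does not mean the same regions, as a q-value threshold also removes weak GSK 24 h records. With only records of a -log10 q-value of at least 5, it was 4633, the share lost at 24 h was 7.64%, the share of vehicle regions without a GSK 4 h record that also lacked a GSK 24 h record was 61.5%, the median fold percentiles were 33.9 and 40.7, the median distance was 7355 bp and 23.1% lay within 1 kb. From 10, these values were 3629, 10.1%, 59.6%, 43.0 and 47.8, 10960 bp and 20.8%. The mirror class fell from 5635 regions to 4509 and 2782 under these thresholds, so its order with the late-lost class turned. With the same number of top records per list, the shares were 8.91% and 61.8% and the 4 h percentile 34.7. After merging records up to 1 kb apart, they were 4.74% and 56.4%, with 3738 mirror regions. With an overlap of 50%, they were 6.14% and 62.4%. Ranked by p-value, the vehicle percentile was 24.1. Between summits, the median distance was 3893 bp and 24.2% lay within 1 kb. The log2 ratio at neighbours was 0.17 within 50 kb and 0.040 from the deposited fold.

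Other alternatives were chosen after seeing the data. Taking a GSK 24 h record within 1 kb as presence gave 2870 regions (3.82%), of which 273 were strong (1.26%). The strong regions were 2.62% from a -log10 q-value of 5, 1015 (4.90%) from 10, 281 (1.39%) with merging within 1 kb and 2.54% with an overlap of 50%. The median ratio of 4 h to vehicle height was 0.443 with strong set at 10 and 0.301 at 40. The cause of these shifts was not tested. No alternative varied the depth. The 24 h list had 0.952 of the recovered vehicle depth, and the lower counting limit was past the needed level in both lists for 15.8% of late-lost regions.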
